A study of Saccharomyces cerevisiae with 72 samples.

Results

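The genes described here are 35 heat shock chaperone genes of budding yeast, measured by RNA sequencing of 72 libraries. They were chosen by name from the 2 deposited expression tables, which list 6857 and 6865 genes, and all 35 were found in both. They are 6 genes of cytosolic Hsp70 (SSA1, SSA2, SSA3, SSA4, SSB1, SSB2), 5 of its J-protein and exchange partners (YDJ1, SIS1, SSE1, SSE2, FES1), 5 of the disaggregase, the small heat shock proteins and the sorting factors (HSP104, HSP26, HSP42, BTN2, CUR1) and 7 of Hsp90 and its cochaperones (HSP82, HSC82, STI1, CPR6, AHA1, SBA1, CDC37). The others are 6 genes of the mitochondrial chaperones (SSC1, HSP60, HSP10, MDJ1, MGE1, HSP78), KAR2 of the endoplasmic reticulum, 3 genes of the chaperonin TRiC (TCP1, CCT2, CCT8) and 2 of the Hsp31 family (HSP31, HSP32).

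The libraries came from 8 haploid MATa strains of the BY4741 background, growing asynchronously in YM-1 medium with dextrose. Each strain gave 3 libraries at 0, 20 and 60 min of estradiol (1 uM). Every strain carried the mutations his3∆1, lyp∆0 and ura3∆0, with can1∆::STE2pr-SpHIS5 at CAN1, and a HAP1+::NatMX::pACT1-Z3EV-ENO2term cassette, in which the ACT1 promoter drives Z3EV, a transcription factor that estradiol switches on. In the Z3EVp_ strains the promoter that Z3EV acts on (Z4pr in the genotypes) stood before YOX1, yox1_9A, YHP1 or yhp1_13A, each tagged with 3V5, and 9A and 13A are alleles with the Cdk1 phosphorylation sites of the repressor mutated. In the matching ctrl_ strains the same tagged allele kept its own promoter and Z4pr stood before HO, so that estradiol induced HO in place of the repressor. Each strain has 1 strain name in the labels, so strain and allele cannot be told apart from anything else that a given isolate carries. The YOX1 and yox1_9A strains are in a yox1 table of 36 libraries and the YHP1 and yhp1_13A strains in a yhp1 table of 36, and the replicate numbers 1, 2 and 3 of the labels are used below to name libraries.

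Chaperones bind unfolded or aggregated proteins, and many chaperones spend ATP to return these proteins to a folded state. In yeast many of their genes are switched on by Hsf1, which binds repeats of the bases GAA and TTC in promoters, and some also by Msn2 and Msn4, general stress factors that bind AGGGG. Yox1 and Yhp1 are homeodomain repressors of cell cycle genes.

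All values below are TPM (a transcript level scaled for gene length and library size) or differences of log2(TPM + 1). A gene is called higher or lower where the adjusted p of a limma fit over all genes is under 0.05 and the absolute log2 difference is above 0.58, and errors are standard errors (SE) of that fit. A mean of at least 1 TPM was required, which left 6255 genes for the YOX1 strains and 6230 for the YHP1 strains. Of the 35 chaperone genes 34 passed in both tables, and HSP32 did not, with means of 0.419 and 0.454 TPM. The sources used here give no read totals. The depth behind a value is thus unknown, and its precision was read from the spread between libraries. In bulk cultures a change in the cells that carry an RNA and a change in RNA per cell cannot be told apart.

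The induced genes followed the labels: YOX1 went from between 19.2 and 31.4 TPM at 0 min to between 440 and 1245 at 20 min in its Z3EVp_ strains, YHP1 from between 19.9 and 23.8 to between 769 and 903, and HO in the ctrl_ strains from between 4.02 and 8.70 to between 305 and 415. MF(ALPHA)1 and STE3, which only alpha cells express strongly, stayed at or below 1.34 and 4.37 TPM, while STE2, the receptor of MATa cells, was never under 128 TPM. At 0 and 20 min the yhp1 libraries numbered 1 stood apart from those numbered 2 and 3 in the level of several chaperone genes in all 4 strains, so the results of that table that the number touches are given by number. The labels give no batch, date or other technical property that would say what a number shares.

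Promoter windows are shown first for 6 of the genes, because HSP104, HSP42 and HSP82 on the one hand and HSP26, SSA4 and SSE2 on the other parted in the yhp1 libraries. Each window holds 300 bases and starts 400 bases before the start codon, on the strand of the gene, taken from RefSeq's R64 assembly, the build of the files. Capitals mark GAANNTTC or TTCNNGAA (repeated units bound by Hsf1, which also overlap in a longer 3-part motif, GAA then TTC then GAA, or TTC then GAA then TTC, each parted by NN) and AGGGG or CCCCT (the site of Msn2 and Msn4), all searched on both strands. The windows are chrXII:88223-88522 (+) for HSP104, chrIV:806221-806520 (+) for HSP42, chrXVI:98726-99025 (-) for HSP82, chrII:381630-381929 (+) for HSP26, chrV:364189-364488 (+) for SSA4 and chrII:576097-576396 (-) for SSE2. All 6 lie upstream of coding sequence, before the start codons of YLL026W, YDR171W, YPL240C, YBR072W, YER103W and YBR169C in that order.
HSP104: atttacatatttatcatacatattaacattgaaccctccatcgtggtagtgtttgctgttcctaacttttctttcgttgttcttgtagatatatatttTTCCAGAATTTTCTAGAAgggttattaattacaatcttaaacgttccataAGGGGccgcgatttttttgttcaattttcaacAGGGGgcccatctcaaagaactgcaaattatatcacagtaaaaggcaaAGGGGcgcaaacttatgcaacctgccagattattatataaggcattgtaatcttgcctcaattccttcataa
HSP42: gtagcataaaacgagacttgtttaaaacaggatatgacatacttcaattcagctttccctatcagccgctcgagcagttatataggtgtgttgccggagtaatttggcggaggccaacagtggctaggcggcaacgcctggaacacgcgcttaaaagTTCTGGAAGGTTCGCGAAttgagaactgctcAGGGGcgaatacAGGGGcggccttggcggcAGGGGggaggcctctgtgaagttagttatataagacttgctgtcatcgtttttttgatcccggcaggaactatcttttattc
HSP82: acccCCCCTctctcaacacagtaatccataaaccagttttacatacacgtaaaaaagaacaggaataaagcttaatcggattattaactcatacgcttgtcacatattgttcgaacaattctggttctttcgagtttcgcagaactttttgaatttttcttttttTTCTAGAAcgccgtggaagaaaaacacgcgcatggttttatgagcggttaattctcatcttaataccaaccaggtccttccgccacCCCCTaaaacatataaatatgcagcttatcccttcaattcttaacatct
HSP26: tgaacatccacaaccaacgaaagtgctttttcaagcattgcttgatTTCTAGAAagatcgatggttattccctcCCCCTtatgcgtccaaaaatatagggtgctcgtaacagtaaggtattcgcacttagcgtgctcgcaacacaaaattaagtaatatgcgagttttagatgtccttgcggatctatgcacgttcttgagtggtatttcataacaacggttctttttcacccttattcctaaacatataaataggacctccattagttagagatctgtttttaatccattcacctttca
SSA4: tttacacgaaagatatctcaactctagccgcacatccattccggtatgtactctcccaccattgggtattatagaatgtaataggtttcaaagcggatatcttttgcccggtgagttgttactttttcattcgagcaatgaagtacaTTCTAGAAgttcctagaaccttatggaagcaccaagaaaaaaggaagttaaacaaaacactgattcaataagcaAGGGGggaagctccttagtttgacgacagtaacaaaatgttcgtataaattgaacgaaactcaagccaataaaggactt
SSE2: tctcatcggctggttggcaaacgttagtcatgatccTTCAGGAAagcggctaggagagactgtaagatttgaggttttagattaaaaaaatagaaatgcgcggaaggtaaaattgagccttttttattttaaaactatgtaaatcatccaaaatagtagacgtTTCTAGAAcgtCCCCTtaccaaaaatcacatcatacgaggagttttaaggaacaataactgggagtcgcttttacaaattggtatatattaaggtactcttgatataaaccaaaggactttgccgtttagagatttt

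The windows of HSP104 and HSP42 each hold overlapping units that make up the longer 3-part motif, and 3 copies of AGGGG. Those of HSP82, HSP26 and SSA4 hold 1 TTCNNGAA, SSE2 has 2, and none of these 4 holds the 3-part motif. Over all 35 genes 26 windows (74.3%) held GAANNTTC or TTCNNGAA, against 23.6% of the windows of 6001 protein-coding genes. The 3-part motif was in 14 of the 35 (40%) and in 66 of all windows (1.1%), and AGGGG or CCCCT in 14 of the 35 (40%) and 23.5% of all. A match is a stretch of letters and not a measured site.

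The change after estradiol without induction of a repressor was read from the ctrl_ strains, as the mean change of the pair in a table. Every library at 20 and 60 min had estradiol, and no strain was followed without it. Time, handling, active Z3EV and induced HO thus cannot be told apart from estradiol itself. In the yox1 controls 13 of 34 chaperone genes rose at 20 min and none fell, where 7.61% of all genes tested were called higher and 8.39% lower. The largest rises were those of HSP42 and HSP26, the small heat shock protein genes, and SSA1, an inducible Hsp70 gene, followed by HSP104, SSE2, HSP78 and SSA4. The median of the 34 was 0.46, against -0.001 for all genes tested. At 60 min 8 were still higher and none lower, with 2.81% of all genes higher and 0.943% lower. The levels at 0 min had a median of 10416 TPM when summed over the 35 genes, with 12028 at 20 min and 10610 at 60 min.

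HSP42 encodes a small heat shock protein that gathers misfolded protein into deposits. In ctrl_YOX1 the libraries numbered 1, 2 and 3 had 6.7, 5.37 and 10.8 TPM at 0 min, 46.2, 40.4 and 43.5 at 20 min, and 16.005, 18.3 and 25.2 at 60 min. In ctrl_yox1_9A the same order gave 6.56, 5.94 and 11.1 TPM at 0 min, 46.8, 40.03 and 40.8 at 20 min, and 12.5, 13.5 and 18.1 at 60 min. All 6 libraries at 20 min were above all 6 at 0 min and above all 6 at 60 min. HSP42 rose by 2.38 at 20 min (SE 0.16, limma adjusted p = 3.58e-13, a 5.19-fold change on this scale) and by 1.08 at 60 min (SE 0.16, adjusted p = 6.58e-06).

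HSP104 encodes the disaggregase that pulls single chains out of aggregates. It had 25.01, 21.6 and 31.6 TPM at 0 min, 95.3, 88.8 and 89.1 at 20 min, and 37.99, 46.8 and 55.1 at 60 min in ctrl_YOX1. In ctrl_yox1_9A it had 22.9, 22.9 and 36.5 TPM at 0 min, 101, 83.8 and 82.6 at 20 min, and 32.9, 36.8 and 51.8 at 60 min. The 6 libraries at 20 min again lay above all the others. The change was 1.74 at 20 min (SE 0.14, adjusted p = 9.63e-12) and 0.68 at 60 min (SE 0.14, adjusted p = 0.000284, limma).

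HSP26, the other small heat shock protein gene, kept more of its change. It had 6.31, 7.15 and 8.13 TPM at 0 min, 33.6, 45.5 and 30.4 at 20 min, and 23.9, 30.6 and 27.4 at 60 min in ctrl_YOX1. In ctrl_yox1_9A it had 6.87, 7.76 and 6.61 TPM at 0 min, 38.6, 37.1 and 22.5 at 20 min, and 18.3, 22.5 and 21.7 at 60 min. Every library at 20 and at 60 min was above every library at 0 min, and the ranges at 20 and 60 min overlapped. HSP26 rose by 2.10 at 20 min (SE 0.15, adjusted p = 1.22e-12) and by 1.61 at 60 min (SE 0.15, adjusted p = 3.6e-09, limma).

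SSA1 and SSA4 encode heat-inducible forms of the cytosolic Hsp70. SSA1 had 186, 203 and 238 TPM at 0 min, 827, 802 and 685 at 20 min, and 330.3, 369 and 397 at 60 min in ctrl_YOX1. It had 179.9, 219 and 268 TPM at 0 min, 904, 889.7 and 629 at 20 min, and 291, 346 and 386 at 60 min in ctrl_yox1_9A. SSA1 was thus among the more abundant of these RNAs at 20 min, while SSA4 was scarce throughout. SSA4 had 9.92, 6.73 and 9.4 TPM at 0 min, 31.5, 24.9 and 28.8 at 20 min, and 13.5, 15.3 and 16.9 at 60 min in ctrl_YOX1. It had 8.8, 6.66 and 10.3 TPM at 0 min, 32.4, 21.9 and 23.6 at 20 min, and 11.6, 11.9 and 14.05 at 60 min in ctrl_yox1_9A. SSA1 rose by 1.87 at 20 min (SE 0.11, limma adjusted p = 8.99e-15) and SSA4 by 1.55 (SE 0.14, adjusted p = 1.94e-10), and at 60 min the changes were 0.72 and 0.63, still called.

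The other 8 genes that rose at 20 min in the yox1 controls came from 4 of the role groups. Among the partners of Hsp70, SSE2, an exchange factor, rose by 1.73 (SE 0.10, adjusted p = 3.1e-14) and SIS1, a J-protein, by 0.63 (SE 0.15, adjusted p = 0.000915). In mitochondria, HSP78, the disaggregase there, rose by 1.69 (SE 0.13) and HSP60, the chaperonin, by 0.82 (SE 0.08). HSP82, the inducible Hsp90 gene, rose by 1.16 (SE 0.16), and its cochaperone genes CPR6 and AHA1 by 0.76 and 0.72. CUR1, a sorting factor for misfolded protein, rose by 0.82 (SE 0.16, adjusted p = 7.36e-05). HSP60, HSP78 and HSP82 were still higher at 60 min, by 0.76, 0.79 and 0.60.

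The 5 most abundant members of the yox1 table did not reach the 0.58 threshold on size at 20 min in the controls. SSA2, a constitutive Hsp70 gene, had a mean of 1923 TPM over the yox1 libraries and a change of 0.11 at 20 min, and HSC82, the constitutive Hsp90 gene, a mean of 960 TPM and a change of 0.26. SSB1 and SSB2, whose Hsp70 works on chains leaving the ribosome, had means of 1042 and 1259 TPM and changes of -0.44 and -0.26. HSP10, the mitochondrial cochaperonin gene, had a mean of 1058 TPM and a change of 0.51. The 3 TRiC genes had changes between -0.43 and -0.28, also not called. SSA1 and SSA2, SSB1 and SSB2, and HSP82 and HSC82 are close paralogs, and reads that fit both copies may have been dropped by the authors' mapping quality filter, so their levels are uncertain.

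Between 20 and 60 min 7 of the 34 fell in the yox1 controls, against 3.09% of all genes, and none rose, against 5.07%. HSP42 fell by 1.30, SSE2 by 1.20, SSA1 by 1.15, HSP104 by 1.05, SSA4 by 0.92, HSP78 by 0.90 and CPR6 by 0.76. HSP60 and HSP26, with differences of -0.06 and -0.49, did not pass. The controls taken singly gave 14 higher genes at 20 min in ctrl_YOX1 and 12 in ctrl_yox1_9A, against 7.99% and 7.1% of all genes, and 9 and 5 at 60 min, against 3.13% and 2.51%. The 12 were among the 14, with SIS1 (0.69) and STI1, the Hsp70 to Hsp90 adaptor (0.60), called in ctrl_YOX1, and the 5 (HSP26, HSP42, HSP60, HSP78 and SSA1) among the 9, with HSP104, HSP82, SSA4 and SSE2 added.

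**Figure D1:**
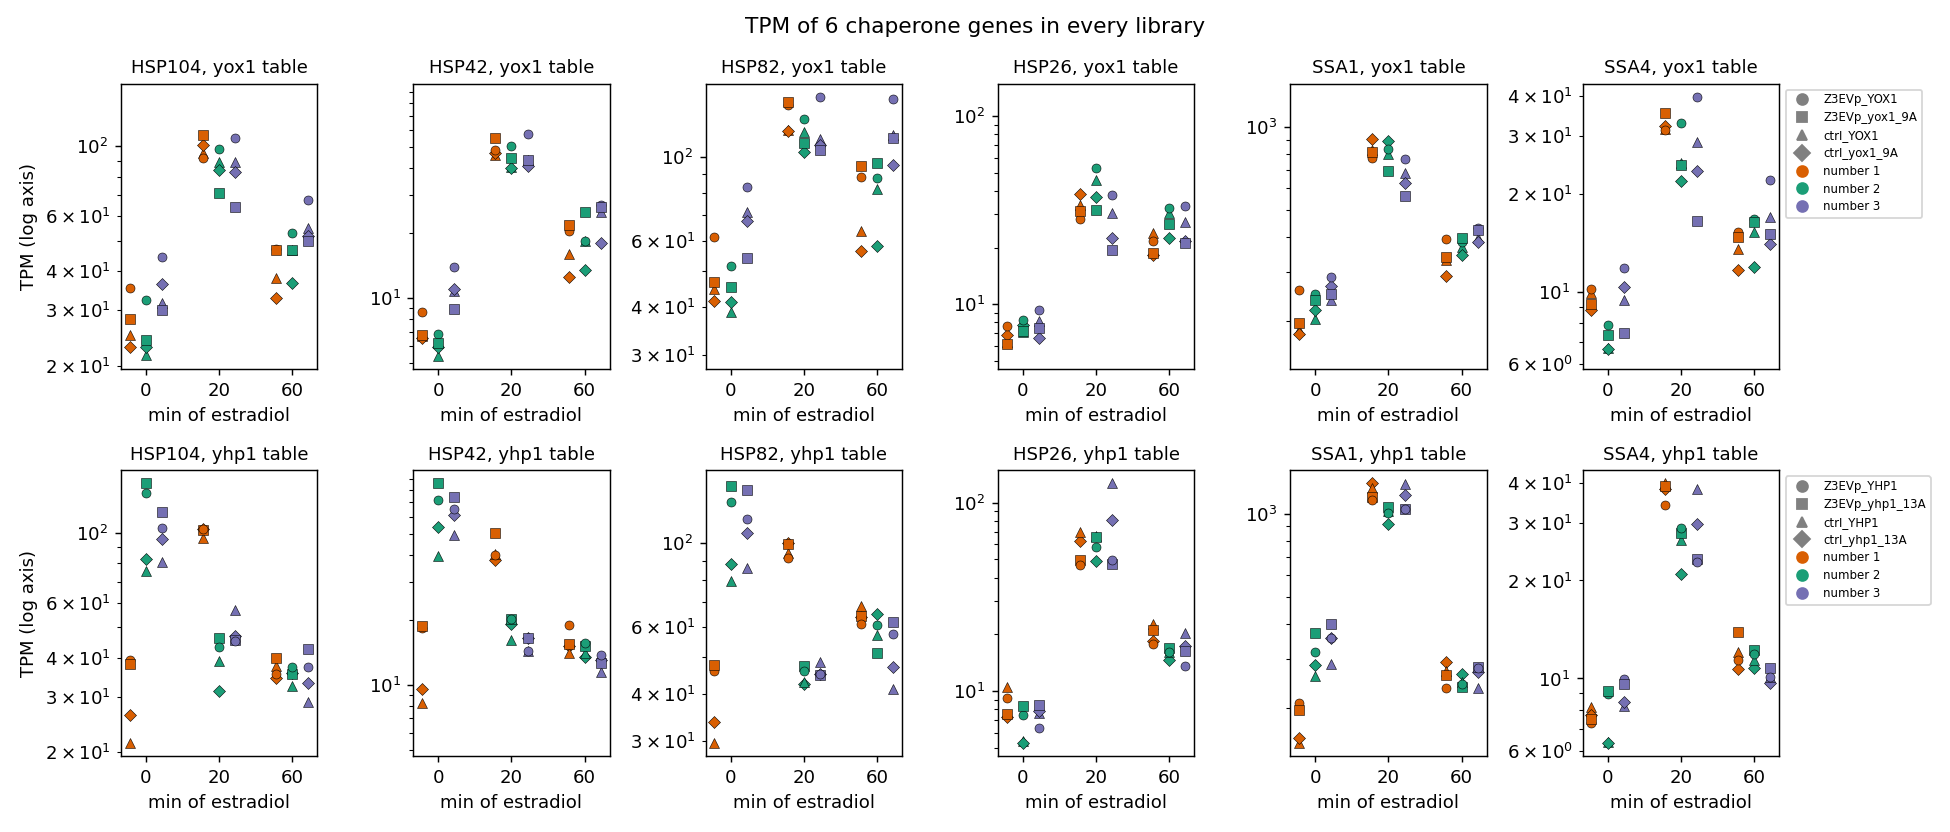
TPM on a log axis of HSP104, HSP42, HSP82, HSP26, SSA1 and SSA4 in every library of both tables at 0, 20 and 60 min after estradiol, with colour for the replicate number and marker for the strain. In the yox1 table all numbers rise together at 20 min, while in the yhp1 table HSP104, HSP42 and HSP82 at 0 min are low in the libraries numbered 1 and high in those numbered 2 and 3, and HSP26 and SSA4 are not.

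In the yhp1 controls 10 of the 34 rose at 20 min and 5 fell, against 7.38% higher and 11.3% lower over all genes. With each library shifted to a common median the split of all genes moved from 460 higher and 706 lower to 598 and 572, and the median of all genes by -0.09. The largest rises were those of HSP26, SSA1, SSA4 and SSE2. HSP104, HSP42, HSP78 and HSP82, all called in the yox1 table, were not called here. At 60 min 3 were higher and 4 lower, against 3.68% and 3.92%.

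HSP26 had 10.5, 5.42 and 7.64 TPM at 0 min, 69.6, 66.6 and 127 at 20 min, and 22.6, 16.03 and 20.3 at 60 min in ctrl_YHP1. In ctrl_yhp1_13A it had 7.27, 5.28 and 7.87 TPM at 0 min, 62.7, 49.2 and 80.5 at 20 min, and 18.5, 14.6 and 17.4 at 60 min. All 6 libraries at 20 min were above the others at every number. HSP26 rose by 3.17 at 20 min (SE 0.15, limma adjusted p = 7.19e-16, a 9.03-fold change on this scale) and by 1.23 at 60 min (SE 0.15, adjusted p = 2.31e-07).

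SSA1 had 149, 261 and 287 TPM at 0 min, 1239, 1021 and 1274 at 20 min, and 271, 247 and 236 at 60 min in ctrl_YHP1. In ctrl_yhp1_13A it had 155, 284 and 358 TPM at 0 min, 1285, 921 and 1169 at 20 min, and 291, 264 and 269.8 at 60 min. Its 20 min libraries lay together and apart from the rest, although those at 0 min were lower at number 1 than at 2 and 3. SSA1 rose by 2.27 at 20 min (SE 0.18, adjusted p = 1.22e-11, limma), and at 60 min the difference was 0.15 (SE 0.18) and not called.

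SSA4 had 8.19, 6.38 and 8.23 TPM at 0 min, 39.7, 26.6 and 38.3 at 20 min, and 12.03, 11.4 and 10.1 at 60 min in ctrl_YHP1. In ctrl_yhp1_13A it had 7.73, 6.32 and 8.49 TPM at 0 min, 38.3, 21.01 and 29.9 at 20 min, and 10.7, 10.8 and 9.71 at 60 min. No library at 20 min fell into the range of the other times. SSA4 rose by 1.93 (SE 0.13, adjusted p = 8.91e-13, limma). SSE2 rose by 1.64 (SE 0.18, adjusted p = 8.26e-09), CPR6 by 1.00, HSP60 by 0.94, AHA1 by 0.87 and HSP10, the partner of Hsp60, by 0.86. HSP31, of the Hsp31 family, and KAR2, the Hsp70 of the endoplasmic reticulum, rose by 0.65 and 0.58.

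Within numbers 1, 2 and 3 the control changes of these genes at 20 min kept 1 direction. Such a change sets libraries of 20 min against those of 0 min with the same number. The labels do not say that these came from 1 culture. They were 2.40, 1.13 and 1.41 for SSE2, 1.34, 0.71 and 0.95 for CPR6, 1.18, 0.97 and 0.68 for HSP60, and 1.34, 0.65 and 0.61 for AHA1. For HSP10 they were 0.89, 0.96 and 0.74, for HSP31 0.72, 0.70 and 0.52, and for KAR2 1.00, 0.27 and 0.48. KAR2 rested on the 0 min libraries numbered 1, without which its change was 0.50 and not called. The 7 genes that rose at 20 min in the controls of both tables were HSP26, SSA1, SSA4, SSE2, HSP60, CPR6 and AHA1, and 18 of the 34 rose in neither. Of all genes tested 7.61% rose in the yox1 controls and 7.38% in the yhp1 controls. The share that rose in both or in neither was not counted, so these sets are lists and no measure of overlap.

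Between 0 and 20 min the HSP104 level in the yhp1 controls differed in opposite directions by number. It had 21.4, 75.9 and 80.8 TPM at 0 min, 96.7, 39.2 and 56.8 at 20 min, and 37.6, 32.5 and 28.9 at 60 min in ctrl_YHP1. In ctrl_yhp1_13A it had 26.2, 82.7 and 95.3 TPM at 0 min, 103, 31.3 and 47.05 at 20 min, and 34.6, 35.7 and 33.2 at 60 min. The libraries numbered 1 were lowest at 0 min and highest at 20 min, those numbered 2 and 3 were higher at 0 than at 20 min, and at 60 min all 6 lay between 28.9 and 37.6 TPM. Its mean change at 20 min was 0.04 (SE 0.38, 95% interval -0.75 to 0.83), and within numbers 1, 2 and 3 it was 2.03, -1.15 and -0.75.

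HSP42 had the same form. It had 8.21, 39.7 and 49.5 TPM at 0 min, 40.5, 16.2 and 14.3 at 20 min, and 14.1, 14.1 and 11.5 at 60 min in ctrl_YHP1. In ctrl_yhp1_13A it had 9.56, 54.04 and 61.2 TPM at 0 min, 37.9, 19.1 and 16.5 at 20 min, and 15.2, 13.5 and 13.1 at 60 min. The libraries numbered 1 were highest at 20 min, and those numbered 2 and 3 before estradiol. The mean change was -0.37 (SE 0.46, 95% interval -1.31 to 0.57), made up of 2.03, -1.35 and -1.78 within numbers 1, 2 and 3. At 60 min it was -1.03 (SE 0.46) and not called. With the replicate number within time as a random block it was called lower (SE 0.36, limma adjusted p = 0.0245). In that fit 3.42% of all genes were higher and 3.87% lower. Such a block does not pair libraries of 0 and 60 min. The direction at 60 min rested on the 0 min libraries. Without those numbered 2 and 3 the change was 0.56, and without those numbered 1 it was -1.83.

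Of the 5 genes that fell at 20 min in the yhp1 controls, YDJ1, the main cytosolic J-protein gene, fell by 0.85 (SE 0.13, adjusted p = 1.66e-06), FES1, an exchange factor gene, by 0.81 (SE 0.09), and CCT2 by 0.70 (SE 0.11). The sorting factor genes CUR1 and BTN2 fell by 0.84 (SE 0.28, adjusted p = 0.0118) and 0.73 (SE 0.25, adjusted p = 0.0155, limma). Within numbers 1, 2 and 3 the changes were -0.59, -1.01 and -0.95 for YDJ1, -0.42, -1.002 and -1.02 for FES1, and -0.94, -0.57 and -0.59 for CCT2. For CUR1 they were 0.64, -1.54 and -1.63, and for BTN2 0.48, -1.20 and -1.48. The CUR1 and BTN2 results rest on the 0 min libraries numbered 2 and 3. Without them each strain had 1 library at 0 min, so only sizes are given. The changes were then 0.079 for CUR1 and 0.065 for BTN2, and those of HSP104, HSP42, HSP78 and HSP82 were 1.22, 1.22, 1.21 and 0.85. Without the 0 min libraries numbered 1 instead, HSP42, HSP78 and HSP82 were called lower, with -1.16, -0.69 and -0.62, and HSP104 had -0.55, while CCT2 had -0.52 and was no longer called. Both settings were chosen after the difference by number at 0 min was seen. The shifts thus follow from that choice and are no separate evidence. At 60 min HSP26, HSP60 (0.90) and HSP10 (0.69) were higher and SSE1, an exchange factor gene (-0.65), FES1 (-0.75), CCT2 (-0.60) and CUR1 (-0.81) lower. Of these, SSE1 (-0.56) and CCT2 (-0.42) were not called without the 0 min libraries numbered 1. Without those numbered 2 and 3 the changes of FES1 and CUR1 were -0.57 and 0.11.

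Between 20 and 60 min SSB1 rose by 0.61, against 6.69% of all genes, and 7 fell, against 3.6%: SSA1 by 2.12, HSP26 by 1.95, SSA4 by 1.47, SSE2 by 1.28, CPR6 by 1.18, SSE1 by 0.61 and HSC82 by 0.59.

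**Figure D2:**
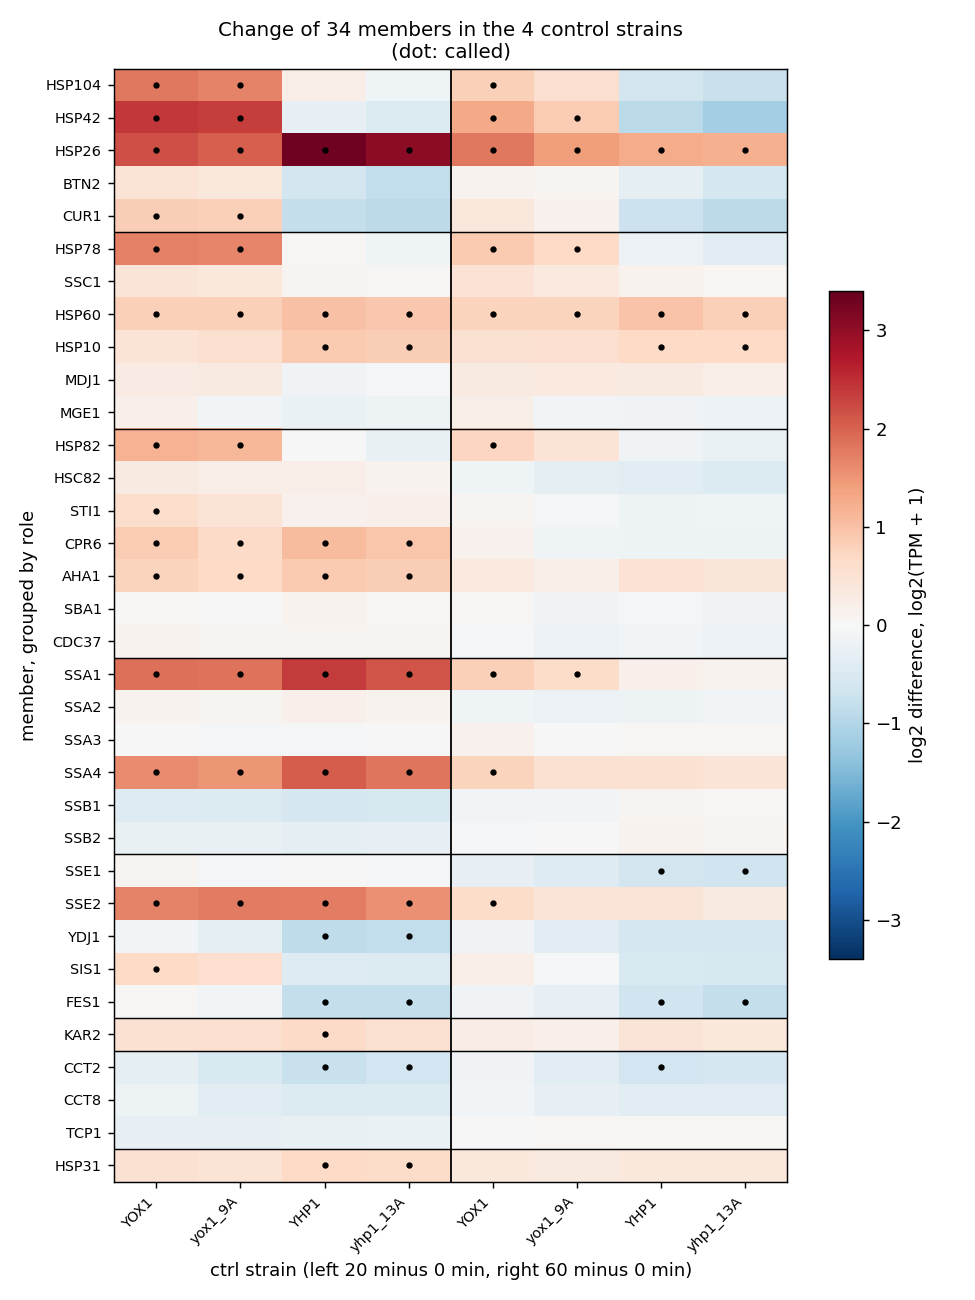
Log2 change of 34 chaperone genes from 0 min in the 4 ctrl_ strains at 20 and 60 min, as a heat map in which a dot marks a called change. HSP26, SSA1, SSA4 and SSE2 are higher at 20 min in all 4 strains, and HSP104, HSP42, HSP78 and HSP82 were called higher at 20 min in the ctrl_YOX1 and ctrl_yox1_9A strains and in neither yhp1 control.

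The difference by number ran through all 4 strains of the yhp1 table, inducible ones included. At 0 min 8 chaperone genes were higher by more than 0.58 in both the library numbered 2 and that numbered 3 than in number 1 of the same strain, in all 8 such differences, against 1.19% of all genes, and none was lower in all 8, against 0.385%. These were HSP42 (1.76 to 2.56), HSP78 (1.5 to 2.15), HSP104 (1.38 to 1.88), HSP82 (1.31 to 1.63), CUR1 (1.06 to 1.49), BTN2 (1.02 to 1.44), SIS1 (0.66 to 0.97) and SSA1 (0.60 to 1.20). At 20 min the sign turned: HSP104, HSP78, HSP42, HSP82, SIS1 and STI1 were lower by more than 0.58 in all 8, as were 0.209% of all genes. No chaperone gene met either criterion at 60 min in the yhp1 table, nor at any time in the yox1 table, where at most 0.016% of all genes did. HSP26, SSA4 and SSE2 did not meet it at any time. In the yhp1 table SSE2 still had the same signs at a smaller size, with 0.21 to 0.67 at 0 min and -1.08 to -0.24 at 20 min. SSA4 was lower in all 8 at 20 min (-0.83 to -0.05) but mixed at 0 min (-0.32 to 0.40). HSP26 was mixed at both times (-0.84 to 0.14 and -0.34 to 0.85).

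Other stress genes moved with the number too. Of 16 genes of the general stress response that Msn2 and Msn4 drive, 11 were higher at 0 min in all 8 differences, TSL1 of trehalose synthesis by 2.40 to 3.63 and GLK1, glucokinase, by 1.54 to 2.59. HSP30, a stress protein of the plasma membrane, was higher by 1.41 to 2.44. None of 32 proteasome genes, of 7 other Hsp90 cochaperone genes or of 11 other TRiC and prefoldin genes was, and JJJ3 was lower. What the cultures or libraries of a number shared was not tested.

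**Figure D3:**
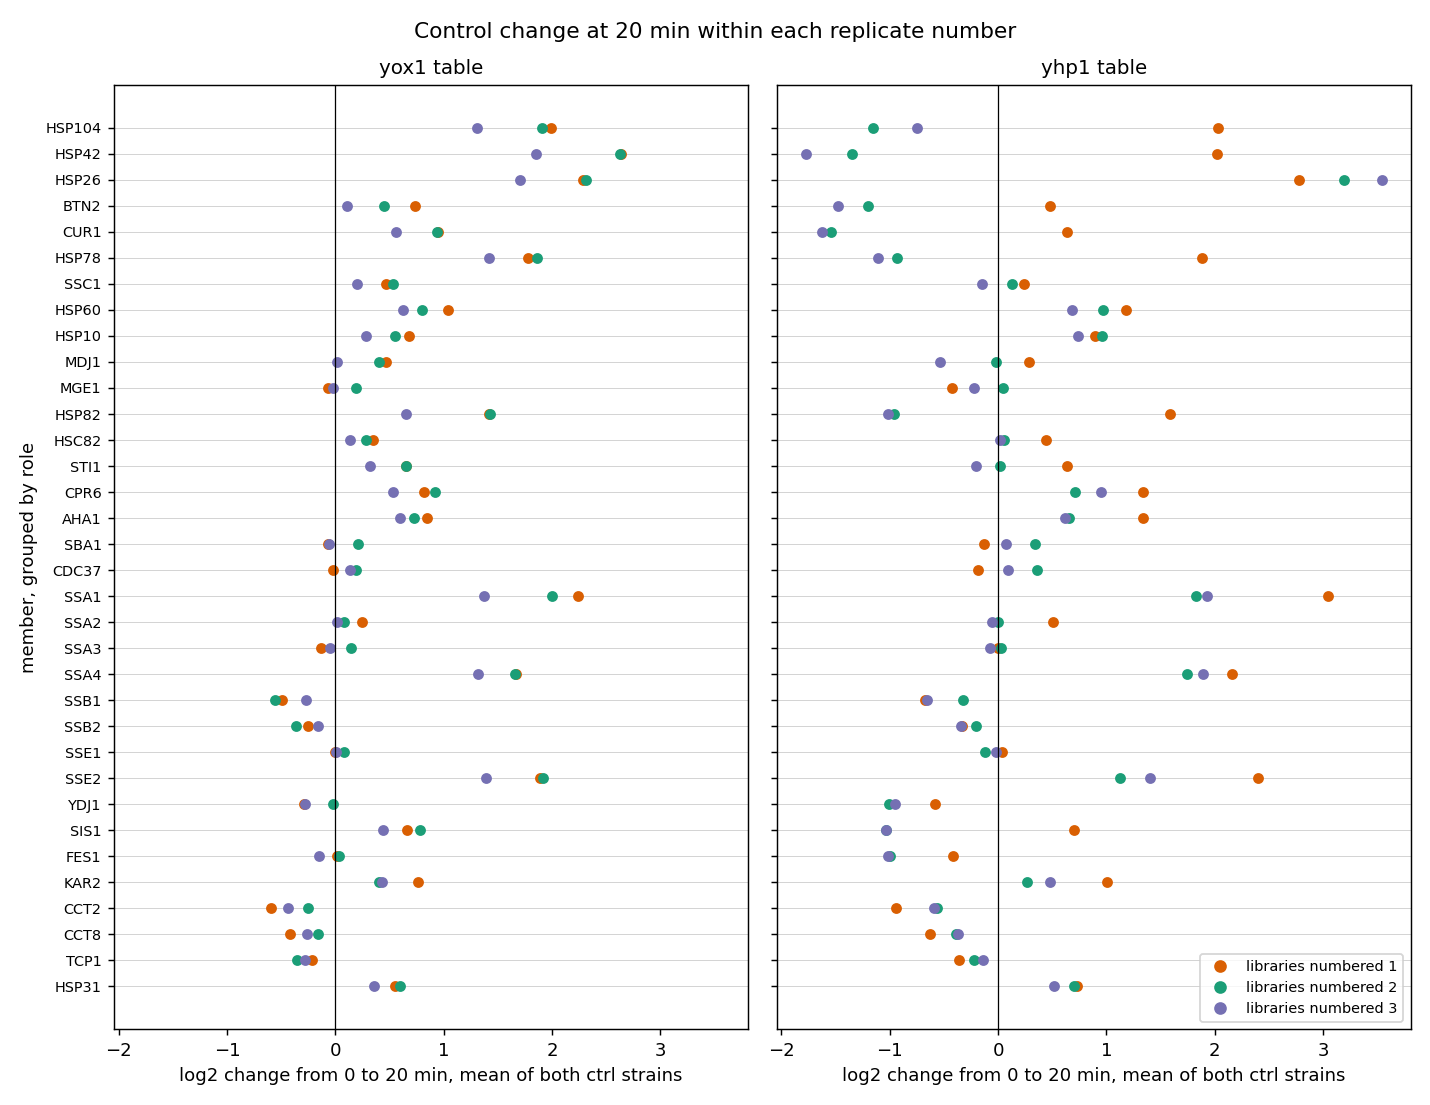
Log2 change of the chaperone genes from 0 to 20 min in the ctrl_ strains within each replicate number, for both tables. In the yhp1 table HSP104 stands at 2.03 within number 1 and at -1.15 and -0.75 within numbers 2 and 3, while HSP26 stands at 2.78, 3.20 and 3.54.

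Read within a number, the yhp1 controls numbered 1 had 17 chaperone genes above 0.58 and 4 below -0.58 at 20 min, with 11.3% and 18% of all genes. Numbers 2 and 3 had 9 above with 9 below and 8 above with 11 below, with 9.28% and 9.76%, then 5.92% and 9.84%, of all genes. In the yox1 controls the counts above were 17, 15 and 10, with 9.22%, 10.7% and 5.98% of all genes, and those below 1, 0 and 0, with 10.5%, 8.52% and 8.94%. HSP104, HSP42, HSP78, HSP82, CUR1, BTN2 and SIS1 had a positive change within number 1 and negative ones within numbers 2 and 3 of the yhp1 table, whereas HSP26 had 2.78, 3.20 and 3.54.

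Whether the control change differed between the tables was tested in a joint fit of all 72 libraries over 6247 genes. At 20 min 9 chaperone genes had a higher change in the yox1 controls, against 2.51% of all genes, and 1 a lower change, against 0.384%. HSP42 differed by 2.74 (SE 0.50, limma adjusted p = 0.000137), HSP78 by 1.74 (SE 0.41, adjusted p = 0.0034), HSP104 by 1.70 (SE 0.42), CUR1 by 1.66 (SE 0.33), HSP82 by 1.29 (SE 0.39), BTN2 by 1.16 (SE 0.28), SIS1 by 1.08 (SE 0.28), FES1 by 0.78 (SE 0.15) and YDJ1 by 0.65 (SE 0.20). HSP26 had the lower change, with -1.07 (SE 0.22, adjusted p = 0.000628). At 60 min HSP42, HSP104 and CUR1 differed, by 2.11, 1.38 and 1.08, against 1.06% of all genes, and none was lower, against 0.144%. Each table holds its own set of strains and libraries, and these cannot be told apart. The fit without the 0 min yhp1 libraries numbered 2 and 3 left each yhp1 strain 1 library at 0 min, so only sizes are given. For HSP42, HSP78, HSP104, CUR1, HSP82, BTN2 and SIS1 the yhp1 control change at 20 min was then 1.22, 1.21, 1.22, 0.079, 0.85, 0.065 and 0.098. For FES1, YDJ1 and HSP26 it was -0.63, -0.997 and 2.92. At 60 min the table differences of HSP42, HSP104 and CUR1 were then 0.52, 0.20 and 0.16, and that of CCT2 was 0.72. A fit of only the control groups at those times called none at 60 min (limma adjusted p = 0.0708, 0.12 and 0.148).

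The windows of the 8 genes that parted by number at 0 min held GAANNTTC or TTCNNGAA in 8 cases, the 3-part motif in 6 (75%) and AGGGG or CCCCT in 5 (62.5%). The windows of the 7 genes higher at 20 min in both tables held them in 7, 3 (42.9%) and 4 (57.1%). SSA1 belongs to both groups. In the 18 genes higher in neither table the counts were 9 (50%), 5 (27.8%) and 4 (22.2%). SSA3, SSB1, SSB2, MGE1 and CDC37 had no match to any of the 3 motifs in this window, which says only that the letters are not there.

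Lists of related genes put the 34 in context. Of all genes tested 7.61% were higher and 8.39% lower at 20 min in the yox1 controls, and 7.38% and 11.3% in the yhp1 controls. Where a list below has only a few falls, they are not read as a result about the list. None of the 6 regulators HSF1, MSN2, MSN4, SKN7, YAP1 and HAC1 was called at 20 min in the controls of either table. Of 24 other genes of Hsp70s, J-proteins and exchange factors none rose and 3 fell in each table, JJJ3 in both. Of 7 other Hsp90 cochaperone genes 2 fell in each table, CNS1 and PPT1, and HCH1 rose in the yhp1 controls. Of 11 other TRiC and prefoldin genes none was called in the yox1 controls, with a median of -0.32, and 3 fell in the yhp1 controls, GIM5 and CCT7 by most. The 16 general stress genes included 14 higher in the yox1 controls (median 1.58) and 9 in the yhp1 controls (median 1.03), and HSP12 and UBI4 rose in both. Of 32 proteasome genes none was called in the yox1 controls, and RPN4, their regulator, fell in the yhp1 controls.

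Across the 36 libraries of a table, with each strain centred on its mean, the closest pairs lay both within and across roles and compartments. HSP104 and HSP42 had a correlation of 0.98 over the yox1 libraries and 0.95 over the yhp1 libraries, and HSP42 and HSP78 had 0.99 and 0.94. SSA4 and SSE2 had 0.96 and 0.97, HSP10 and HSP60 0.95 in each, SSB1 and SSB2 0.94 and 0.95, and CCT2 and CCT8 0.92 and 0.95. BTN2 and CUR1 had 0.77 and 0.97. Among pairs that cross groups, HSP78 and HSP82 had 0.97 and 0.95, HSP104 and HSP78 0.98 and 0.95, SSA1 and SSE2 0.98 and 0.94, and HSP26 and SSA4 0.88 and 0.95. These libraries share the time course and the replicate numbers, so the values describe likeness only.

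The question of the induction is whether overexpressed Yox1 or Yhp1 moved the chaperone genes beyond the change of the control, which is the change of the Z3EVp_ strain minus that of its ctrl_ strain. With the replicate number as a fixed block, limma called HSP104, HSP78 and HSP42 lower for YHP1 at 20 min (0.241% of all genes). It called HSP78 and BTN2 lower for YHP1 at 60 min, against 0.385%. HSP42 and HSP31 were higher for yox1_9A at 60 min, against 1.82%. Without the block, none of the 34 was called in any of the 8 subtracted changes by limma. The smallest adjusted p at 20 and 60 min was 0.852 and 0.358 for YOX1, 0.998 and 0.0702 for yox1_9A, 1.00 and 1.00 for YHP1, and 0.999 and 1.00 for yhp1_13A. An unadjusted p under 0.05 was reached by 0 and 1, 0 and 10, 1 and 2, and 0 and 0 genes, in the same order. Of all genes, 0.16% were higher and 2.4% lower for YOX1 at 20 min and 0.368% and 2.38% at 60 min, and for yox1_9A 0.176% and 2.17%, then 1.15% and 3.18%. For YHP1 the shares were 0.0161% and 0.0803%, then 0.0161% and 0.0642%, and for yhp1_13A 0.0161% and 0.337%, then 0.0161% and 0.482%.

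The inducible strains rose at 20 min themselves, as their controls had. In Z3EVp_YOX1 HSP42 had 8.66, 6.84 and 13.96 TPM at 0 min, 48.6, 50.5 and 57.6 at 20 min, and 20.5, 18.3 and 27.1 at 60 min. Z3EVp_yox1_9A had 6.75, 6.18 and 8.93 TPM at 0 min, 55.3, 44.6 and 43.4 at 20 min, and 21.9, 25.03 and 26.3 at 60 min. HSP42 was thus highest at 20 min in all 6, and its subtracted change at 20 min was -0.06 for YOX1 (SE 0.32, 95% interval -0.72 to 0.59) and 0.22 for yox1_9A (SE 0.32, -0.43 to 0.88). At 60 min it was -0.18 for YOX1 (SE 0.32) and 0.77 for yox1_9A (SE 0.32, 95% interval 0.12 to 1.42, adjusted p = 0.183).

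HSP104 had 35.4, 32.4 and 44.4 TPM at 0 min, 91.6, 97.9 and 106 at 20 min, and 47.1, 53.03 and 67.5 at 60 min in Z3EVp_YOX1. In Z3EVp_yox1_9A it had 28.2, 24.1 and 30.003 TPM at 0 min, 109, 70.8 and 63.99 at 20 min, and 46.8, 46.6 and 49.96 at 60 min. Its subtracted changes at 20 min were -0.40 for YOX1 and -0.19 for yox1_9A, each with SE 0.27. HSP26 had 7.66, 8.27 and 9.28 TPM at 0 min, 28.4, 53.01 and 38.1 at 20 min, and 21.8, 32.5 and 33.4 at 60 min in Z3EVp_YOX1. In Z3EVp_yox1_9A it had 6.17, 7.2 and 7.52 TPM at 0 min, 31.1, 31.6 and 19.5 at 20 min, and 18.8, 26.5 and 21.3 at 60 min. The subtracted changes of HSP26 at 20 min were -0.10 and -0.22, each with SE 0.30, and neither gene was called.

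SSA1 had 258, 249.9 and 287 TPM at 0 min, 769, 834 and 766 at 20 min, and 395, 385 and 431 at 60 min in Z3EVp_YOX1. In Z3EVp_yox1_9A it had 196, 237 and 249.9 TPM at 0 min, 813, 694 and 564 at 20 min, and 339, 399 and 424 at 60 min. The 20 min values overlapped those of the controls, which ran from 629 to 904 TPM. SSA4 had 10.2, 7.9 and 11.8 TPM at 0 min, 31.5, 33.1 and 39.8 at 20 min, and 15.3, 16.7 and 22.03 at 60 min in Z3EVp_YOX1. In Z3EVp_yox1_9A it had 9.2, 7.38 and 7.48 TPM at 0 min, 35.4, 24.4 and 16.5 at 20 min, and 14.7, 16.4 and 15.1 at 60 min. The subtracted changes at 20 min were -0.31 and -0.27 for SSA1 (SE 0.21) and 0.10 and 0.01 for SSA4 (SE 0.28).

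The median subtracted change of the 34 was -0.08 and 0.04 for YOX1 at 20 and 60 min and 0.04 and 0.29 for yox1_9A. For yox1_9A at 60 min 33 of 34 values were positive, and the median of all genes was 0.13. The largest beside HSP42 was HSP31, with 0.61 (SE 0.20, 95% interval 0.20 to 1.03, limma adjusted p = 0.0702). The yox1_9A change minus the YOX1 change called no chaperone gene at either time, with 0 and 1 of 34 under an unadjusted p of 0.05, and of all genes 0 were called at 20 min, and 0 higher and 0.224% lower at 60 min. With the replicate number as a fixed block, although not every pair of same-numbered libraries deviated together in this table, the allele difference of HSP42 at 60 min was called (0.95, SE 0.19, adjusted p = 0.0278), against 0.032% of all genes higher and 0.288% lower. That block also called HSP42 (SE 0.14, adjusted p = 0.000404) and HSP31 (SE 0.13, adjusted p = 0.00274) higher in the subtracted change of yox1_9A at 60 min, against 1.82% and 3.41%.

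In the YHP1 strains the same number pattern was present with and without induction. In Z3EVp_YHP1 HSP104 had 39.3, 134 and 104 TPM at 0 min, 103, 43.3 and 45.4 at 20 min, and 35.4, 37.4 and 37.4 at 60 min. In Z3EVp_yhp1_13A it had 38.4, 144 and 117 TPM at 0 min, 102, 46.2 and 45.5 at 20 min, and 39.9, 35.6 and 42.5 at 60 min. The libraries numbered 2 and 3 were above number 1 at 0 min and below it at 20 min in both. HSP42 had 18.4, 71.8 and 64.996 TPM at 0 min, 39.8, 20.3 and 14.4 at 20 min, and 18.9, 15.6 and 13.7 at 60 min in Z3EVp_YHP1. In Z3EVp_yhp1_13A it had 18.8, 85.8 and 74.04 TPM at 0 min, 50.5, 20.2 and 16.6 at 20 min, and 15.5, 15.1 and 12.6 at 60 min. The subtracted change at 20 min for YHP1 was -0.70 for HSP104 (SE 0.77), -0.63 for HSP78 (SE 0.75) and -0.67 for HSP42 (SE 0.92).

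With the replicate number within time as a fixed block, those values were called lower, for HSP104 with SE 0.16 (adjusted p = 0.0382), for HSP78 with SE 0.14 (adjusted p = 0.025) and for HSP42 with SE 0.15 (adjusted p = 0.0382), against 0.0161% of all genes higher and 0.241% lower in that limma fit. At 60 min the blocked fit called HSP78 (-0.58, SE 0.14, adjusted p = 0.0337) and BTN2 (-0.61, SE 0.14, adjusted p = 0.0293) lower for YHP1, against 0.385% of all genes, with HSP78 just past the threshold on size. It called none for yhp1_13A, where the shares of all genes higher and lower were 0.0321% and 0.61% at 20 min and 0.161% and 0.915% at 60 min. In the fit without the block, Z3EVp_YHP1 minus ctrl_YHP1 at 20 min itself was -0.03 for HSP104 (SE 0.54), 0.13 for HSP78 (SE 0.53) and 0.10 for HSP42 (SE 0.65). At 60 min it was 0.18 for HSP78 (SE 0.53) and 0.10 for BTN2 (SE 0.36). These SEs include the spread between numbers, which the SEs of the blocked fit leave out. Same-numbered libraries deviated together here, so that spread partly cancels in a difference between strains at the same time. These differences were not fitted with the block, and their SEs are not comparable with the blocked ones.

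Before estradiol no chaperone gene was called between a Z3EVp_ strain and its ctrl_ strain without the block, with 3, 0, 7 and 0 of 34 under an unadjusted p of 0.05 for YHP1, yhp1_13A, YOX1 and yox1_9A. Of all genes 0.0803% were higher and 0.0642% lower for YHP1 and for yhp1_13A, 0.0639% and 0.048% for YOX1 and 0.192% and 0.128% for yox1_9A. With the fixed block Z3EVp_YHP1 was higher than ctrl_YHP1 in HSP42 (0.77, SE 0.11, adjusted p = 7.67e-05), HSP78 (0.76, SE 0.10, adjusted p = 1.66e-05), BTN2 (0.72, SE 0.10, adjusted p = 4.91e-05) and HSP104 (0.67, SE 0.11, adjusted p = 0.000745), against 0.385% of all genes higher and 0.144% lower in that limma fit. Z3EVp_yhp1_13A was higher than its control in HSP78 (0.65), BTN2 (0.62) and HSP42 (0.61), against 0.273% and 0.0963%. These are genes that also parted by number, and the difference was in the same direction in both alleles.

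No difference from the control change was called for HSP26, SSA1 and SSA4 with Yhp1 induced. HSP26 had 9.19, 7.49 and 6.32 TPM at 0 min, 46.9, 58.004 and 49.8 at 20 min, and 17.8, 16.03 and 13.5 at 60 min in Z3EVp_YHP1. In Z3EVp_yhp1_13A it had 7.53, 8.28 and 8.42 TPM at 0 min, 49.4, 65.98 and 47.003 at 20 min, and 21.2, 16.9 and 16.4 at 60 min. Its subtracted change at 20 min was -0.69 for YHP1 (SE 0.31, 95% interval -1.32 to -0.06, adjusted p = 1.00) and -0.46 for yhp1_13A (SE 0.31). The highest HSP26 value of all, 127 TPM, was in ctrl_YHP1 number 3 at 20 min.

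SSA1 had 208, 316 and 356 TPM at 0 min, 1121, 1004 and 1040.3 at 20 min, and 236, 244 and 278 at 60 min in Z3EVp_YHP1. In Z3EVp_yhp1_13A it had 196, 372 and 399 TPM at 0 min, 1147, 1057 and 1041 at 20 min, and 263, 237 and 279 at 60 min. The 20 min libraries ran from 1004 to 1147 TPM, within the range of the controls, 921 to 1285. SSA4 had 7.31, 8.97 and 9.94 TPM at 0 min, 34.2, 28.9 and 22.9 at 20 min, and 11.4, 11.9 and 10.1 at 60 min in Z3EVp_YHP1. In Z3EVp_yhp1_13A it had 7.5, 9.17 and 9.6 TPM at 0 min, 38.998, 28.1 and 23.2 at 20 min, and 13.9, 12.3 and 10.8 at 60 min. The subtracted changes at 20 min were -0.51 and -0.34 for SSA1 (SE 0.35) and -0.45 and -0.17 for SSA4 (SE 0.26), not called.

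**Figure D4:**
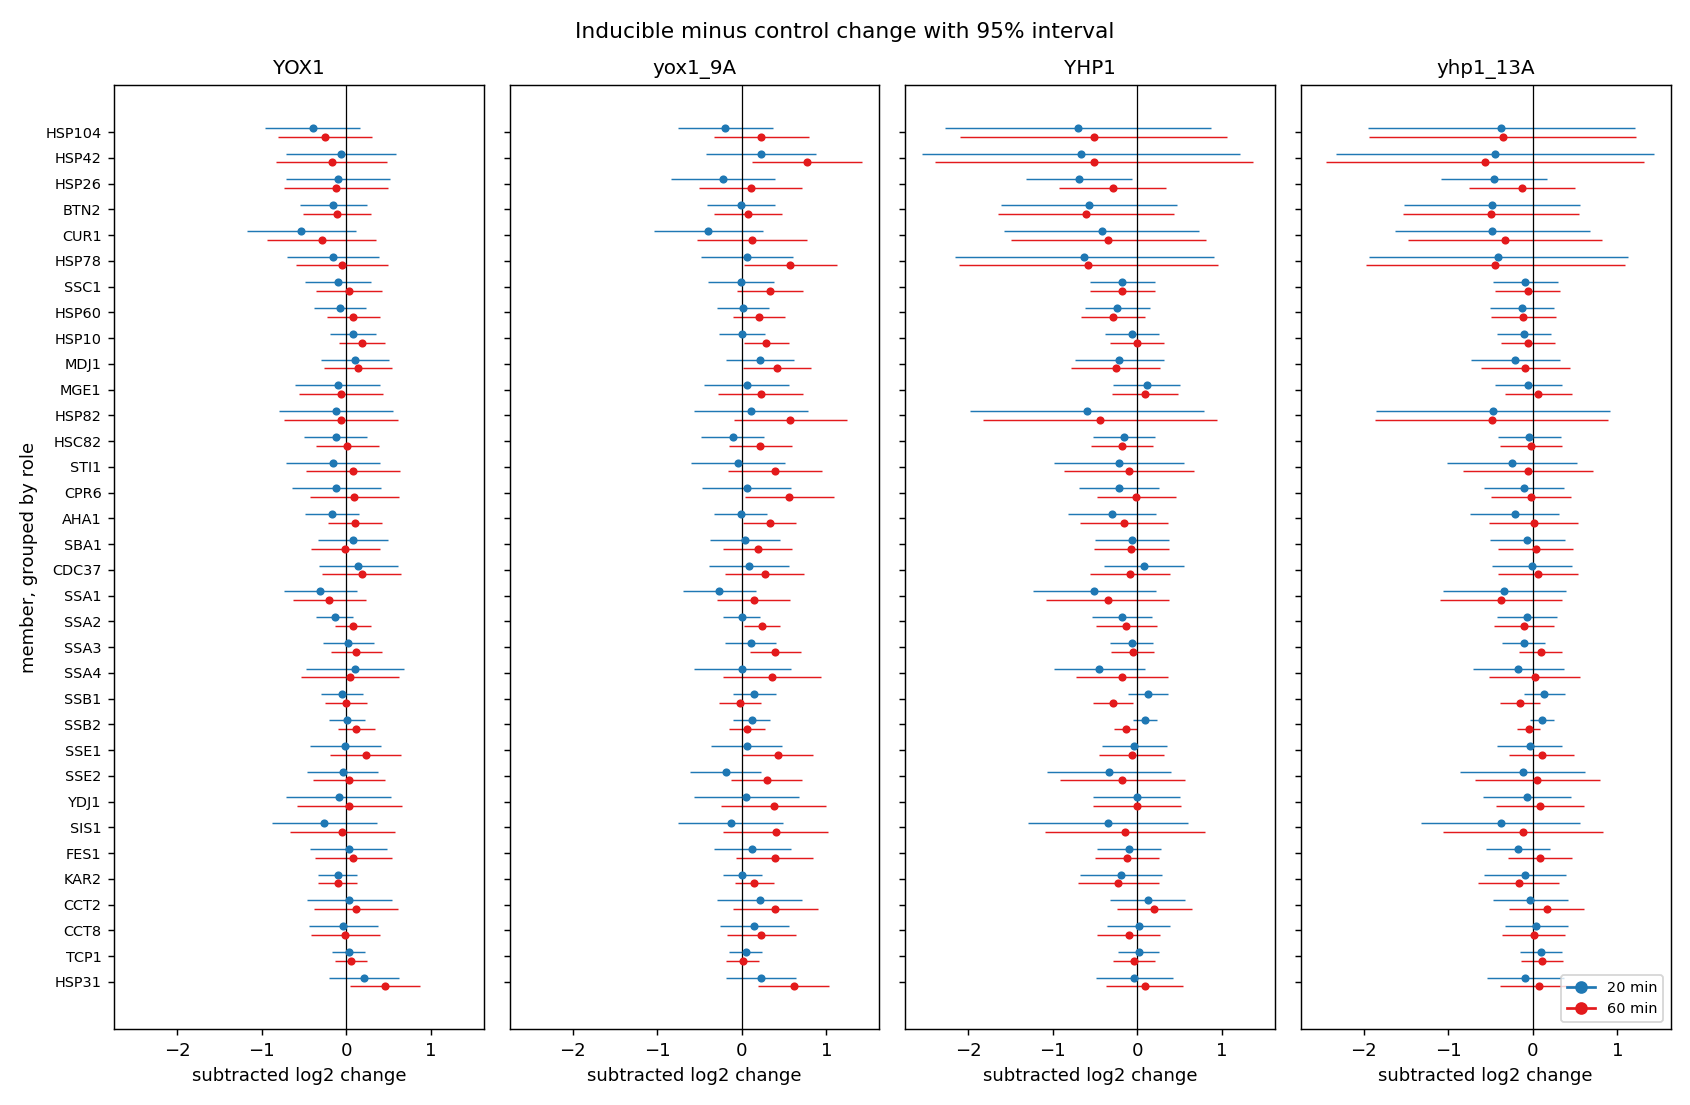
Subtracted log2 change (inducible strain minus its control, each from 0 min) of the chaperone genes, for YOX1, yox1_9A, YHP1 and yhp1_13A at 20 and 60 min. The 95% intervals are those of the fit without the replicate block. The intervals of HSP104, HSP42 and HSP78 are widest in the YHP1 and yhp1_13A panels, where for HSP42 at 20 min with YHP1 the SE is 0.92 against 0.32 with YOX1.

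The change within the inducible strains, without subtraction, called 12 chaperone genes higher at 20 min in both Z3EVp_YOX1 and Z3EVp_yox1_9A and none lower, the same 12 in each, against 8.51% and 9.19% of all genes higher and 8.89% and 9.77% lower. They were HSP42 (2.35 and 2.56), HSP26, SSA4, SSE2, SSA1, HSP78, HSP104, HSP82, HSP60, CPR6, AHA1 and HSP31 (0.73 and 0.70). At 60 min it called 10 and 13 higher, against 5.56% and 9.18%. HSP42, HSP26, HSP31, HSP60, HSP78, HSP82, SSA1, SSA4, SSE2 and HSP10 were higher in both strains, and HSP104, SSC1, the mitochondrial Hsp70 gene (0.67), and MDJ1, its J-protein gene (0.74), in Z3EVp_yox1_9A. In Z3EVp_YHP1 9 were higher and 5 lower at 20 min and in Z3EVp_yhp1_13A 8 and 6, against 5.59% and 10.5% of all genes in the former and 6.04% and 10.5% in the latter. HSP26 (2.61 and 2.59), SSA1, SSA4, SSE2, HSP60, HSP10, CPR6 and AHA1 were higher in both, and HSP31 in Z3EVp_YHP1. YDJ1, FES1, CCT2, BTN2 and CUR1 were lower in both, and SIS1 (-0.84) in Z3EVp_yhp1_13A. At 60 min the counts were 3 and 3 for Z3EVp_YHP1, against 2.65% and 4.03%, and 3 and 4 for Z3EVp_yhp1_13A, against 3.6% and 3.63%. HSP26, HSP60 and HSP10 were the 3 higher in each, FES1 and CUR1 were lower in each, SSE1 in Z3EVp_YHP1, and HSP42 and BTN2 in Z3EVp_yhp1_13A. With the random block the counts were 3 and 7, against 2.7% and 4.24%, and 3 and 6, against 3.68% and 3.84%. The allele difference of yhp1_13A and YHP1 called none at either time by limma, with 0 of 34 under an unadjusted p of 0.05, and of all genes 0.0161% lower at 60 min.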

How the data were processed

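Poly-A status is described differently by the labels (depletion) and the methods (purification), so levels of RNA without tails are uncertain. The authors mapped reads with STAR 2.5.3a to R64-1-1, counted exons with featureCounts 1.5.2 above a mapping quality of 20 and deposited TPM per gene in 2 tables of 36 libraries. Neither library strand nor read totals are given in the sources used here. A gene and its antisense partner thus cannot be separated, and depth is unknown. The TPM of a library summed to between 999744 and 999841, and no libraries were identical.

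From there, log2(TPM + 1) of all genes averaging 1 TPM or more went into limma 3.58.1 under R 4.3.3 (trended variances, two-sided, Benjamini-Hochberg over all genes of a contrast), 1 model per table with 12 groups of 3, and 1 joint model. The thresholds on adjusted p (0.05) and size (0.58) are those of the study, whose count model needs counts not used here. The study's design text calls the replicates biological, so the p-values rest on the spread between such libraries.

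Replicate numbers were checked for pairing by correlating deviations of libraries with 1 number at 1 time: in the yhp1 table all 54 pairs were above 0.1 (0.34 to 0.82, against a median of -0.37 between other numbers). There the number, as a fixed block within time or a random block for changes in time, was fitted too. Neither block pairs libraries of different times. Between times, yhp1 libraries of the same strain and number had a median of 0.28 (-0.18 to 0.64, 31 of 36 above 0.1).

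Called members are named in each comparison, and the 5 with the largest called control or subtracted change in either table (HSP26, HSP42, SSA1, SSA4 and HSP104) are given with their value in every library of both tables. Members and lists were chosen with earlier results of these data known. Alternatives were other pseudocounts and filters, a common median, untrended variances, fewer groups, blocks and leaving out libraries. Leaving out the 0 min yhp1 libraries by number was chosen after seeing the data. The fits were tested on simulated data with libraries drawn independently. Those data hold no effect shared by a replicate number, so they do not test the fits under one.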

Additional observations from a re-analysis of the deposited data

Results flagged for a closer look

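The control change of 10 chaperone genes differed between the yox1 and yhp1 tables by the test of the difference in the joint limma fit (yox1 minus yhp1, log2). At 20 min the differences were 2.74 for HSP42, 1.74 for HSP78, 1.70 for HSP104, 1.66 for CUR1, 1.29 for HSP82, 1.16 for BTN2, 1.08 for SIS1, 0.78 for FES1, 0.65 for YDJ1 and -1.07 for HSP26. At 60 min they were 2.11 for HSP42, 1.38 for HSP104 and 1.08 for CUR1. Without the yhp1 libraries numbered 2 and 3 at 0 min, which left 1 per strain, the yhp1 control changes at 20 min moved. HSP78 went from -0.054 to 1.21, HSP104 from 0.040 to 1.22, CUR1 from -0.84 to 0.079 and HSP82 from -0.13 to 0.85. BTN2 went from -0.73 to 0.065, SIS1 from -0.46 to 0.098 and HSP42 from -0.37 to 1.22. FES1, YDJ1 and HSP26 kept their direction, with -0.63, -0.997 and 2.92. At 60 min none of HSP42, HSP104 and CUR1 was called in a fit of only the control groups at these times. Without those libraries their yhp1 control changes at 60 min went from -1.03, -0.69 and -0.81 to 0.56, 0.49 and 0.11.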

How the results depend on the processing

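Most counts of called chaperone genes stayed within 1.5 times of the reported ones under other pseudocounts, filters and variance models. Without the 0 min yhp1 libraries numbered 2 and 3, the yhp1 control changes at 20 min turned to 0.065 for BTN2, 0.079 for CUR1, 1.22 for HSP42, 1.21 for HSP78 and 0.85 for HSP82, and at 60 min to 0.11 for CUR1 and 0.97 for HSP78. That setting left each strain 1 library at 0 min, so its counts of called chaperone genes are left out. Without number 1 at 0 min there were 8 lower in the yhp1 controls at 20 min and 8 at 60 min, 9 in the table difference at 60 min, 8 and 10 lower for Z3EVp_YHP1 at 20 and 60 min and 8 for Z3EVp_yhp1_13A at 60 min. A common median left 0 higher between 20 and 60 min in the yhp1 controls, and a fit of only the groups compared left 0 in the table difference at 60 min. Without number 1 at 0 min, 215 of all genes were called in the table difference at 60 min, against 75 in the main fit. The rise in chaperone genes called higher there, from 3 to 9, thus came with a rise over all genes. The counts over all genes behind the other results named for that setting stayed within 1.5 times of the main ones. The cause of these shifts was not tested.

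With the replicate block the subtracted counts were 3 and 2 lower for YHP1 at 20 and 60 min, 4 and 3 were higher before estradiol for YHP1 and yhp1_13A, and 7 lower for Z3EVp_YHP1 at 60 min. In the yox1 table the deviations of same-numbered libraries correlated from -0.24 to 0.67, with a median of 0.23 and 40 of 54 above 0.1, against a median of -0.14 between other numbers. Over the chaperone genes alone the median was 0.57, with 45 of 54 above 0.1. As not every pair reached 0.1, the number was not treated as a pairing there. There the block called 2 genes higher for yox1_9A at 60 min (HSP42 and HSP31) and 1 in the allele difference (HSP42).

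Leaving out 1 library at a time gave ranges of 12 to 14 higher at 20 min and 6 to 8 at 60 min in the yox1 controls, with 7 to 11 lower between these times. In the yhp1 controls it gave 8 to 10 higher and 5 to 6 lower at 20 min, 3 to 7 lower at 60 min, and 0 to 1 higher and 5 to 7 lower between them. The table difference ranged from 7 to 9 at 20 min and 1 to 6 at 60 min, and the subtracted change of yox1_9A at 60 min from 0 to 1. Lower counts ranged from 3 to 6 and 2 to 7 for Z3EVp_YHP1 at 20 and 60 min, and from 4 to 6 and 1 to 5 for Z3EVp_yhp1_13A. These ranges show how far the counts depend on 1 library and are given without shares of all genes.

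Counts over all genes moved by more than 1.5 times in some settings. With the block those before estradiol went from 9 to 33 (YHP1), 9 to 23 (yhp1_13A) and 7 to 13 (YOX1), and the subtracted ones from 6 to 16 and 5 to 25 (YHP1, 20 and 60 min) and 22 to 40 and 31 to 67 (yhp1_13A). A pseudocount of 5 TPM took the yox1 controls at 60 min from 235 to 149. Counts without the 0 min yhp1 libraries numbered 2 and 3 are left out, as each strain then had 1 library at 0 min.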
